A study of Mus musculus with 9 samples.

Results

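The connexin genes *Gjb2*, *Gjb6*, *Gjb5* and *Gja1*, which are active in mouse epidermis, were examined in bulk RNA-Seq of skin from 5 control mice and 4 *Supt6*-KO mice. They were chosen by name as the rows of the deposited gene table that map to these symbols, and they make up 4 of 17943 genes. All 4 passed the filter on low counts, which left 16428 genes to test. *Supt6* encodes SPT6, a factor that travels with RNA polymerase II during transcription elongation.

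According to the study's methods, the controls were *Supt6* fl/fl mice given corn oil, and the *Supt6*-KO mice were K14-CreERT; *Supt6* fl/fl mice given tamoxifen, so that both groups carried the floxed alleles. Skin was taken on day 10 after the last injection, with injections during the first telogen phase of the hair cycle, and no age in days or strain is given in the sources used here. The groups differ in the Cre transgene and in tamoxifen together, and the effects of these cannot be told apart from that of the deletion. The K14 promoter drives Cre in basal keratinocytes and other K14-positive epithelium, so dermal, vascular and immune cells of the *Supt6*-KO skin should keep an intact *Supt6*. The sample titles call the groups wild-type and *Supt6* KO. Other sample labels name a *Supt6* knockdown and the ear as the tissue, whereas the methods name dorsal skin. All 6 genes of a cartilage list (*Col2a1*, *Acan*, *Col9a1*, *Hapln1*, *Matn3* and *Cnmd*) were detected, with a summed level of 327 to 734 CPM (normalized counts scaled to a common library total) in the controls and 62.5 to 75.1 CPM in the *Supt6*-KO mice. Of the trunk Hox genes with a row, *Hoxa7*, *Hoxb7*, *Hoxc8* and *Hoxc10* were at or near 0 CPM, while *Hoxd8* had 10.6 ± 1.14 CPM and *Hoxd9* 4.39 ± 0.496 CPM (SD, n = 5) in the controls, and 5.22 ± 0.329 and 1.68 ± 0.352 CPM (SD, n = 4) in the *Supt6*-KO mice. Keratinocyte genes were abundant in every library, for example *Krt5* with 4631 ± 202 CPM (SD, n = 5) in the controls and 2544 ± 848 CPM (SD, n = 4) in the *Supt6*-KO mice.

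Library totals of estimated counts ran from 29627341 to 30491197 in the controls, with a median of 29870081. Those of the *Supt6*-KO mice ran from 30597200 to 30967119, with a median of 30794137. *Supt6* had 76.5 ± 17.2 CPM (SD, n = 5) in the controls and 25.7 ± 3.31 CPM (SD, n = 4) in the *Supt6*-KO mice. Its log2 fold change was -1.57 (SE 0.18, adjusted p = 1.3e-05 in edgeR's quasi-likelihood test). In keratinocyte markers *Supt6*-KO mouse 4 stood apart from the other *Supt6*-KO mice. It had a summed level of 22800 CPM for the activated keratinocyte keratins *Krt6a*, *Krt6b*, *Krt16* and *Krt17*, against 2950 to 5510 CPM in *Supt6*-KO mice 1 to 3. Its 7 suprabasal genes summed to 20300 CPM, against 40400 to 42600 CPM in those mice, so the main results are also given without it where it moves them. Control mouse 1 stood apart in *Gja1* (209 CPM against a control median of 114 CPM), and other such values are given further below.

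Connexins are membrane proteins that cross the bilayer several times and assemble into a ring called a connexon or hemichannel. A hemichannel docks with its partner in the neighbouring cell to form a gap junction channel, through which ions, calcium signals and small metabolites pass, and an undocked hemichannel can release ATP. Keratinocytes make several connexins in layer-specific patterns. *Gja1* encodes Cx43, the connexin with the widest tissue distribution, and *Gjb2* and *Gjb6* encode Cx26 and Cx30, which are scarce in resting interfollicular epidermis, are found in hair follicles and are known to appear in healing and psoriatic epidermis. *Gjb5* encodes Cx31.1, a connexin of stratified epithelia. Inherited variants of GJB2 and GJB6 cause deafness and disorders of cornification in humans.

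Each of the 4 genes has its whole coding sequence in 1 exon, and coordinates below are those of GRCm38, the mm10 build that the authors used. *Gjb2* (NCBI gene 14619) lies on the reverse strand at chr14:57098602-57104702, with 2 exons and a transcript of 2406 bases that codes for 226 residues. *Gjb6* (NCBI gene 14623) lies next to it on the same strand at chr14:57123301-57133611, with 3 exons, 2105 bases and 261 residues. The stretch between these neighbours is 18599 bases long. *Gjb5* (NCBI gene 14622) lies on the reverse strand at chr4:127354809-127358164, with 2 exons, 1721 bases and 271 residues. *Gja1* (NCBI gene 14609) lies on the forward strand at chr10:56377300-56390419, with 2 exons, 3182 bases and 382 residues. No other annotated gene overlapped the transcript of any of the 4.

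The start sites of these genes are shown because 3 of the 4 transcripts were higher in *Supt6*-KO skin, by unequal amounts, while the other showed no clear change. Each sequence is the RefSeq promoter window of build GRCm38.p6, from 250 bases before the start site to 50 bases from it on, on the strand of the gene and read 5′ to 3′. Capitals mark matches on either strand to the NF-κB consensus or to any of 4 other motifs. These motifs are TGANTCA, which is bound by AP-1 factors such as those of the Fos and Jun families, and GGGCGG, the GC box bound by Sp1 and related zinc finger factors. The others are CCAAT, the box read by the NF-Y complex, and the TATA box, searched for as TATAAA. The windows lie at chr14:57104653-57104952 (reverse strand) for *Gjb2*, chr14:57133562-57133861 (reverse strand) for *Gjb6*, chr4:127358115-127358414 (reverse strand) for *Gjb5* and chr10:56377050-56377349 (forward strand) for *Gja1*.
Gjb2: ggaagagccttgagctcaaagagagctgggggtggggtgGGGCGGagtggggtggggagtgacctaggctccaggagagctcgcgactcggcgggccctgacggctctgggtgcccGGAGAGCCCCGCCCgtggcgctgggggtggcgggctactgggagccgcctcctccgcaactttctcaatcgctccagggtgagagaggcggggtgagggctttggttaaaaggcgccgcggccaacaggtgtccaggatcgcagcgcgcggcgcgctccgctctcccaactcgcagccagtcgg
Gjb6: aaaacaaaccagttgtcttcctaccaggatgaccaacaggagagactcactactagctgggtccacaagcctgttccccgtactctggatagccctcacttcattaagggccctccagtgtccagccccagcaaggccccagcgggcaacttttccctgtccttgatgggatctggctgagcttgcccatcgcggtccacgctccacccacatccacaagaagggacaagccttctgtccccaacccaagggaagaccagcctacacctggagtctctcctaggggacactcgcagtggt
Gjb5: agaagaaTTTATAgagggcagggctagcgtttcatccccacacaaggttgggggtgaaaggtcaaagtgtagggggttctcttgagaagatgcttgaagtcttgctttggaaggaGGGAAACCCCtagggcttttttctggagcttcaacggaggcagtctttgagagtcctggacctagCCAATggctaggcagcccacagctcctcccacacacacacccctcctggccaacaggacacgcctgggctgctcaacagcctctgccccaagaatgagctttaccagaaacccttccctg
Gja1: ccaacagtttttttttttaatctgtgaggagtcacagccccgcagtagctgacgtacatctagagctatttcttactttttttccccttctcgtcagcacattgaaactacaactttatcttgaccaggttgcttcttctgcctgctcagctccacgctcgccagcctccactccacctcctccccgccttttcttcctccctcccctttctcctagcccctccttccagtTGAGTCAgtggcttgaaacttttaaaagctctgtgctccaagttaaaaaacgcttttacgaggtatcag

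The windows differed in base composition. That of *Gjb2* had 70.0% G and C and 27 CG pairs, against medians of 52.7% and 7 CG pairs over all 32851 promoter windows. That of *Gjb6* had 57.3% and 6 CG pairs, that of *Gjb5* had 54.3% and 3 CG pairs, and that of *Gja1* had 47.7% and 8 CG pairs. Positions here are those of a match's first base, with negative numbers before the start site. *Gjb2* held a GC box at -211 and a second one, on the opposite strand, that overlaps an NF-κB consensus match at -134. *Gjb5* held an NF-κB consensus match at -135 that reads on both strands, a CCAAT at -70 and a TATAAA on the opposite strand at -243. *Gja1* held an AP-1 match at -19, and the window of *Gjb6* held none of the motifs searched. Of all promoter windows, 8.46% held the NF-κB consensus, 7.81% TGANTCA, 35.7% GGGCGG, 37.4% CCAAT and 13.6% TATAAA, so the GC box and CCAAT matches are common ones. These matches describe the letters of the windows, and no binding was measured in these files.

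*Gjb2*, *Gjb6* and *Gja1* rose in *Supt6*-KO skin and *Gjb5* did not pass the test. A gene was called when its adjusted p was under 0.05 in edgeR's quasi-likelihood test and its change at least 2-fold, and by this rule 20.9% of all genes tested were higher in *Supt6*-KO skin and 24.9% lower. All 4 *Supt6*-KO mice lay above all 5 controls for these 3 connexins, as they did for 28.9% of all genes tested, while 31.8% of genes lay below in the same way. In bulk skin, more cells of a type and more RNA per cell cannot be told apart.

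*Gjb6*, which encodes Cx30, was close to silent in control skin. Its level was 7.65, 3.23, 4.21, 3.62 and 2.37 CPM in control mice 1 to 5, from 93 to 286 counts, and 175, 152, 178 and 176 CPM in *Supt6*-KO mice 1 to 4, from 3175 to 4888 counts. The lowest *Supt6*-KO mouse was far above the highest control, and the 4 *Supt6*-KO mice were close to each other. The mean rose 40.4-fold, the controls having 4.22 ± 2.03 CPM (SD, n = 5) and the *Supt6*-KO mice 170 ± 12.02 CPM (SD, n = 4). The log2 fold change was 5.33 (SE 0.30, adjusted p = 2e-07 in edgeR's quasi-likelihood test), which placed *Gjb6* at rank 146 of 16428 genes ordered from the highest log2 fold change.

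*Gjb2*, which encodes Cx26, was higher than *Gjb6* in the controls and varied more between mice in both groups. Its level was 65.1, 24.3, 36.6, 32.2 and 15.1 CPM in the controls and 431, 280, 358 and 858 CPM in the *Supt6*-KO mice. Control mouse 1 was high among the controls and *Supt6*-KO mouse 4 was high among the *Supt6*-KO mice, and the groups did not overlap. The mean rose 13.9-fold, with 34.7 ± 18.9 CPM (SD, n = 5) in the controls and 482 ± 258 CPM (SD, n = 4). The log2 fold change was 3.80 (SE 0.44, adjusted p = 1.6e-05 in edgeR's quasi-likelihood test, rank 289), and it was 3.36 without *Supt6*-KO mouse 4.

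*Gja1*, which encodes Cx43, rose less in relative terms. Its level was 209, 114, 123, 110 and 87.8 CPM in the controls and 406, 397, 531 and 635 CPM in the *Supt6*-KO mice. Control mouse 1 was again the highest control, and it still lay below every *Supt6*-KO mouse. The mean rose 3.83-fold, with 129 ± 46.7 CPM (SD, n = 5) in the controls and 492 ± 113 CPM (SD, n = 4) in the *Supt6*-KO mice. It had a log2 fold change of 1.94 (SE 0.25, adjusted p = 3.3e-05 in edgeR's quasi-likelihood test, rank 1206).

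*Gjb5*, which encodes Cx31.1, showed no change that the test could call. Its level was 116, 141, 141, 131 and 98.0 CPM in the controls and 157, 155, 112 and 34.8 CPM in the *Supt6*-KO mice. *Supt6*-KO mice 1 and 2 lay above every control, mouse 3 lay among them and mouse 4 lay far below. The means were 125 ± 18.6 CPM (SD, n = 5) and 115 ± 57.2 CPM (SD, n = 4), and the log2 fold change was -0.13 (SE 0.34, adjusted p = 0.75 in edgeR's quasi-likelihood test). Without *Supt6*-KO mouse 4 it was 0.17 (adjusted p = 0.33), and with library totals in place of the TMM factors it was -0.88 (adjusted p = 0.022). For *Gjb2*, *Gjb6* and *Gja1* a two-sided exact permutation test of log2(CPM + 0.5) gave p = 0.0159, the smallest value that 5 mice against 4 allow, and for *Gjb5* the exact permutation p was 0.73.

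The scaling of the libraries sets part of each of these values. The TMM factors, by which edgeR adjusts library totals, were 1.198 to 1.315 in the controls and 0.674 to 0.91 in the *Supt6*-KO mice. With library totals alone the midpoint of all log2 fold changes shifted from -0.072 to -0.759, and the log2 fold changes of *Gjb6*, *Gjb2* and *Gja1* were 4.65, 3.18 and 1.27, each still past the threshold. The trend of counts with transcript length also differed between the groups, with slopes of 0.402 to 1.56 log2 units per 10-fold of length in the controls and -1.28 to -0.687 in the *Supt6*-KO mice. With that trend removed the log2 fold changes were 5.13 for *Gjb6*, 3.70 for *Gjb2*, 2.05 for *Gja1* and -0.51 for *Gjb5*.

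**Figure D1:**
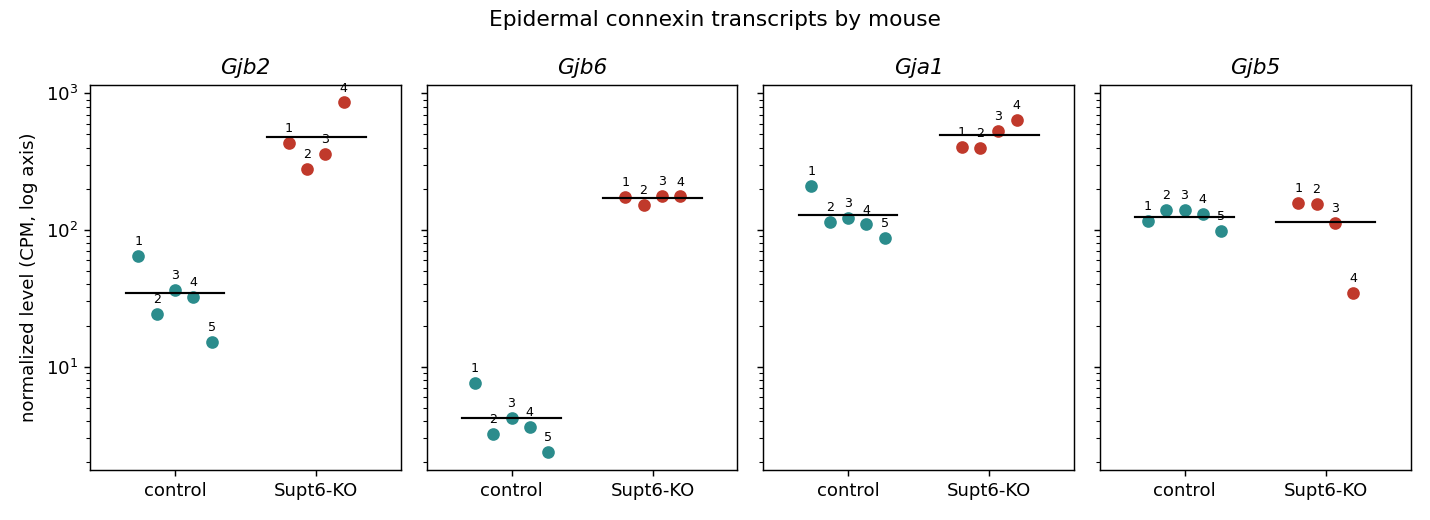
Normalized level (CPM, log axis) of the 4 connexins in each control mouse and each *Supt6*-KO mouse, marked by mouse number, with a line at each group's mean. The *Supt6*-KO points of *Gjb2*, *Gjb6* and *Gja1* lie above all controls, while for *Gjb5* the point of *Supt6*-KO mouse 4 (34.8 CPM) lies below a range that otherwise overlaps the controls.

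Ratios between connexins within a mouse do not depend on how libraries are scaled, and all 6 pairs differed between the groups. The trend of counts with transcript length was not removed from these ratios, and the 4 transcripts differ in length. Nor was it removed from the levels and shares per kilobase given further below. The ratio of *Gjb2* to *Gjb6* counts was 8.52, 7.53, 8.70, 8.89 and 6.40 in the controls and 2.46, 1.84, 2.02 and 4.89 in the *Supt6*-KO mice. These neighbouring genes thus rose by unequal amounts, *Gjb6* more than *Gjb2*, with a difference of -1.62 (SE 0.33) in the log2 ratio. The ratio of *Gjb6* to *Gjb5* counts was 0.0229 to 0.0662 in the controls and 1.12, 0.982, 1.59 and 5.05 in the *Supt6*-KO mice. It showed the largest shift of the 6 pairs, 5.78 (SE 0.61) in the log2 ratio. *Gjb5* and *Gja1* had similar counts in most controls, with a ratio of 0.553 in control mouse 1 and 1.12 to 1.24 in the others. In the *Supt6*-KO mice this ratio was 0.387, 0.391, 0.210 and 0.0547, a difference of -2.31 (SE 0.70) in the log2 ratio, or -1.67 without mouse 4. For the other pairs the log2 ratio differed by 4.16 (SE 0.90) for *Gjb2* to *Gjb5*, or 3.34 without mouse 4, by 1.85 (SE 0.29) for *Gjb2* to *Gja1* and 3.48 (SE 0.16) for *Gjb6* to *Gja1*. In each of the 6 pairs the groups did not overlap and the two-sided exact permutation test gave p = 0.0159, the smallest it can give.

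Each connexin was also compared with 10 keratinocyte identity genes in the same mouse (*Krt5*, *Krt14*, *Trp63*, *Perp*, *Dsp*, *Pkp1*, *Jup*, *Cdh1*, *Itga6* and *Itgb4*), as the log2 count of the connexin minus the mean log2 count of the list. Of the list, 5 genes fell (*Trp63*, *Dsp*, *Pkp1*, *Jup* and *Itgb4*), *Perp* rose and 4 were not called, where 24.9% of all genes tested fell and 20.9% rose. The list is therefore not a fixed yardstick. Relative to it, the difference between *Supt6*-KO and control mice was 6.29 (SE 0.30) for *Gjb6*, 4.67 (SE 0.40) for *Gjb2* and 2.81 (SE 0.26) for *Gja1*, with an exact permutation p of 0.0159 for each. For *Gjb5* it was 0.51 (SE 0.64, exact permutation p = 0.429), and 1.12 without *Supt6*-KO mouse 4 (exact permutation p = 0.0357). Against *Krt5* and *Krt14* alone the differences were 5.64 for *Gjb6*, 4.02 for *Gjb2*, 2.17 for *Gja1* and -0.14 for *Gjb5*. Against 7 suprabasal genes they were 4.36, 2.74, 0.89 and -1.42 in the same order, with an exact permutation p of 0.0159 for *Gjb5* and 0.0476 for *Gja1*.

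The order of the 4 connexins differed between the groups when levels were set side by side per length, as CPM per kilobase of transcript. In the controls the means ran from *Gjb5* (72.9) through *Gja1* (40.4) and *Gjb2* (14.4) to *Gjb6* (2.00 CPM per kilobase). *Gjb5* and *Gja1* overlapped in their ranges over mice, while *Gjb2* lay apart from *Gja1* above it and from *Gjb6* below it. In the *Supt6*-KO mice the order was *Gjb2* (200), *Gja1* (155), *Gjb6* (80.9) and *Gjb5* (66.6 CPM per kilobase). There *Gjb2* overlapped with *Gja1* and *Gjb6* overlapped with *Gjb5*, and *Gja1* lay apart from *Gjb6*. The places within each of these pairs are not settled. Without mouse 4 the means were 148 for *Gjb2*, 140 for *Gja1*, 82.1 for *Gjb5* and 80.0 CPM per kilobase for *Gjb6*, so that *Gjb5* and *Gjb6* changed places. *Gjb2* and *Gja1* kept their order of means, but *Gja1* lay above *Gjb2* per kilobase in *Supt6*-KO mice 2 and 3.

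The 4 connexins summed to 92.0 to 163 CPM per kilobase in the controls and to 404 to 660 in the *Supt6*-KO mice, with no overlap. *Gjb5* made up 41.0, 63.3, 59.6, 60.5 and 61.9% of this sum in the controls and between 3.06 and 22.3% in the *Supt6*-KO mice. *Gjb2* made up 6.85 to 16.6% in the controls and 37.2, 28.8, 32.0 and 54.0% in the *Supt6*-KO mice. Both shifts were without overlap between the groups, and *Supt6*-KO mouse 4 was the extreme one in each. Without it the mean share was 18.4% for *Gjb5*, 32.7% for *Gjb2* and 17.8% for *Gjb6*. The share of *Gjb6* was 1.49 ± 0.423% (SD, n = 5) in the controls and 16.5 ± 2.60% (SD, n = 4) in the *Supt6*-KO mice. That of *Gja1* was 30.7 ± 5.42% (SD, n = 5) and 30.9 ± 3.86% (SD, n = 4), with overlapping groups. These shares are of transcripts, and protein was not measured in these files.

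**Figure D2:**
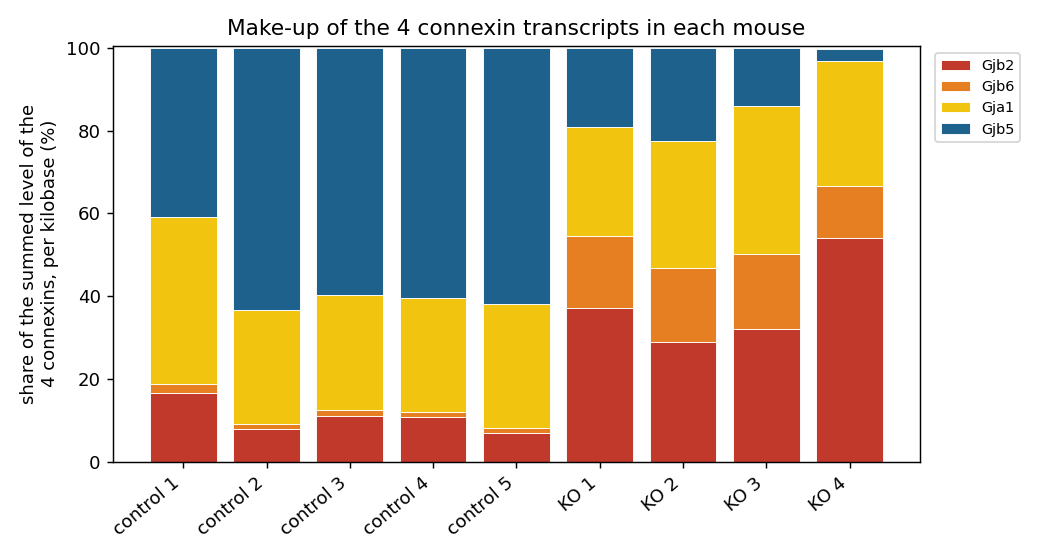
Share (%) of each connexin in the summed level of the 4 connexins per kilobase of transcript, as 1 stacked bar per mouse. *Gjb5* fills 41.0 to 63.3% of the control bars and 3.06 to 22.3% of the *Supt6*-KO bars.

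Among the other connexins, 14 of 16 listed had a row and 12 were tested, of which 2 were called higher, 2 lower and 8 not called. Over all genes tested, 20.9% were called higher and 24.9% lower. The median log2 fold change was -0.07 for these connexins against -0.072 for all genes. *Gjb1*, which encodes Cx32 of liver and peripheral myelin, rose at a low level throughout, having 0.785 ± 0.270 CPM (SD, n = 5) in the controls and 3.54 ± 0.564 CPM (SD, n = 4) in the *Supt6*-KO mice, with a log2 fold change of 2.17 (SE 0.26, adjusted p = 2.2e-05 in edgeR's test). *Gjd3* rose from 1.73 to 3.93 CPM (log2 fold change 1.17, SE 0.33, adjusted p = 0.008), although *Supt6*-KO mouse 4 had 1.44 CPM and the call was lost with library totals (log2 fold change 0.43), with the length correction and without *Supt6*-KO mouse 3. *Gja3*, a connexin of the lens that lies 40572 bases from *Gjb2*, had 3.61, 1.48, 2.66, 1.22 and 1.17 CPM in the controls and 0.460, 0.336, 0.320 and 0.287 CPM in the *Supt6*-KO mice. It fell by 2.52 on the log2 scale (SE 0.42, adjusted p = 0.00024), so that the 3 connexin genes in a row on chromosome 14 did not move in one direction. *Gjc3*, a connexin of myelinating cells, fell from 4.32 to 2.13 CPM (log2 fold change -1.02, SE 0.17, adjusted p = 0.00023). This change is just past 2-fold, and the call was lost with DESeq2 (log2 fold change -0.95), with the length correction and with a replicate block. The call was also lost without control mouse 5 or *Supt6*-KO mouse 3.

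*Gja4* and *Gja5*, connexins of arterial endothelium, had log2 fold changes of -0.15 (SE 0.21, adjusted p = 0.53) and 0.01 (SE 0.27, adjusted p = 0.98). With library totals they had -0.87 and -0.7, near the median of -0.759 over all genes in that setting. Of 5 endothelial marker genes 4 fell, where 24.9% of all genes tested fell. *Gjc1* (-0.36), *Gja6* (0.36) and *Gjd4* (0.73) were not called, and *Gje1* was under the limit of 10 counts.

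**Figure D3:**
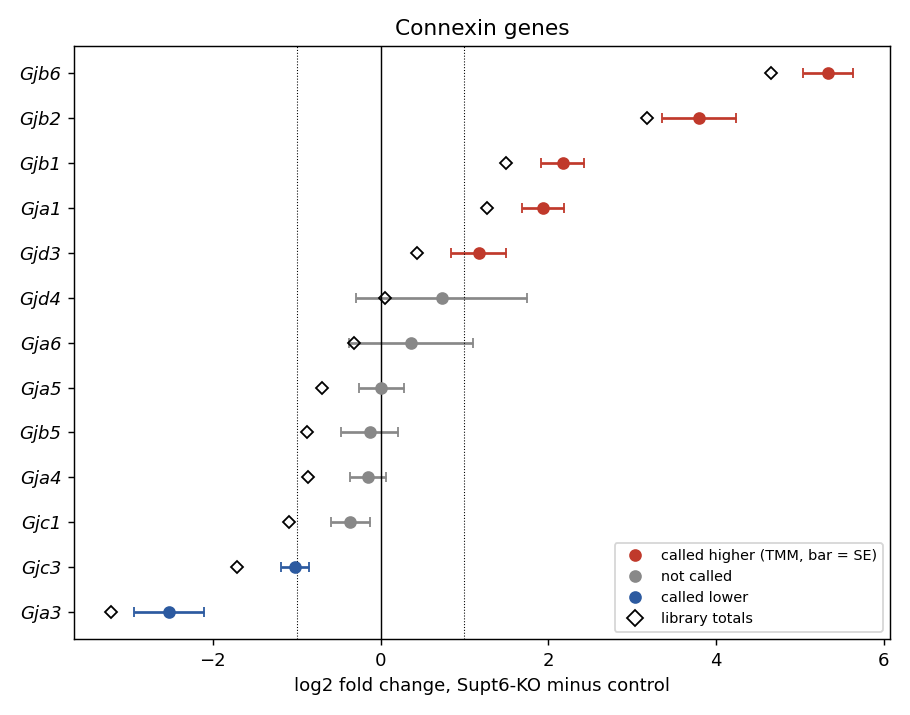
Log2 fold change (*Supt6*-KO against control) of 13 connexins, as points with bars of 1 SE, with open diamonds for the value with library totals. *Gjb6* (5.33), *Gjb2* (3.80), *Gjb1* (2.17) and *Gja1* (1.94) lie farthest to the right, and *Gja3* (-2.52) lies farthest to the left.

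The genes examined beside the connexins did not rise with them. *Cryl1*, on the far side of *Gjb6* at a distance of 141423 bases, had a log2 fold change of -0.73 (SE 0.13, adjusted p = 0.00043), which is under 2-fold. *Tbc1d32* and *Hsf2*, on either side of *Gja1*, had log2 fold changes of -0.31 (adjusted p = 0.18) and -0.96 (adjusted p = 0.00026) and were not called. *Zscan20*, the nearest gene with a row on one side of *Gjb5*, 1220506 bases away, fell (log2 fold change -1.03, SE 0.19, adjusted p = 0.00056). This is just past 2-fold, and with DESeq2 the log2 fold change was -0.96, which is under it.

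Of 16 genes for partners and turnover of connexins, none rose and 8 fell, where 20.9% of all genes tested rose and 24.9% fell, and the median log2 fold change was -0.98. Among those that fell was *Nedd4*, a ubiquitin ligase that binds Cx43, with 389 ± 67.5 CPM (SD, n = 5) in the controls and 105 ± 29.2 CPM (SD, n = 4) in the *Supt6*-KO mice. Its log2 fold change was -1.89 (SE 0.20, adjusted p = 1e-05 in edgeR's test). The caveolin gene *Cav1* fell by 1.25 (SE 0.18) and *Ezr*, which encodes the membrane to actin linker ezrin, by 1.04 (SE 0.17) on the log2 scale. The call of *Ezr* was lost with DESeq2 (log2 fold change -0.98) and with the length correction. It was also lost without control mouse 4, *Supt6*-KO mouse 2 or *Supt6*-KO mouse 3. The actin-binding drebrin gene *Dbn1* fell by 1.79 (SE 0.21). The kinase genes *Src*, *Prkca* and *Prkcd*, whose products can phosphorylate Cx43, fell by 1.32 (SE 0.23), 1.82 (SE 0.25) and 1.48 (SE 0.16), and the endosomal sorting gene *Hgs* by 1.15 (SE 0.24). The call of *Prkca* was lost with the length correction and that of *Hgs* without *Supt6*-KO mouse 2. *Tjp1*, which encodes the scaffold ZO-1 that binds the tail of Cx43, was not called, with 54.2 ± 10.1 CPM (SD, n = 5) and 62.5 ± 8.72 CPM (SD, n = 4). *Tsg101*, of the same sorting pathway as *Hgs*, had 92.5 ± 13.98 CPM (SD, n = 5) and 172 ± 11.2 CPM (SD, n = 4), and its log2 fold change of 0.89 was under 2-fold. The number that fell was 6 to 13 over the scalings, filters, tools and left-out mice that were tried, and none rose in any of them. The 13 came with library totals, under which 41.4% of all genes were called lower.

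Marker genes of several cell types moved with the groups, and their part in the connexin results was not tested. The counts below stand beside 20.9% of all genes tested that were called higher and 24.9% called lower. All 4 activated keratinocyte keratins rose, although *Krt17* (log2 fold change 1.04) had overlapping groups and was not called with library totals (log2 fold change 0.46). The summed level of the 4 was 564, 389, 345, 345 and 274 CPM in the controls and 5510, 2950, 5380 and 22800 CPM in the *Supt6*-KO mice. *Krt17* was the most abundant in the controls (247 CPM) and *Krt16* in the *Supt6*-KO mice (3607 CPM). *Gjb2* was also highest in *Supt6*-KO mouse 4 and lowest in *Supt6*-KO mouse 2. The suprabasal list, led by *Krt10*, had 4 genes higher and 1 lower of 7, and like *Gjb5* it was lowest of its group in *Supt6*-KO mouse 4. Of 7 hair shaft and inner root sheath genes 6 fell, and the sum of the 7 was 1920, 156, 632, 389 and 4.94 CPM in the controls and 15.5 to 73.4 CPM in the *Supt6*-KO mice. *Krt71* had the highest mean in the controls (212 CPM), and *Tchh*, the gene not called, made up nearly all of the *Supt6*-KO sum with 13.8 to 72.2 CPM. Among the controls *Gjb2* and *Gjb6* both had the same order of mice as this sum, from mouse 1 through 3, 4 and 2 to 5, which is given as a description of 5 mice. All 6 cartilage, all 4 skeletal muscle and all 4 adipocyte genes fell, as did 2 of 5 fibroblast genes. Of 6 macrophage and neutrophil genes 3 rose and 2 fell. *Lyz2*, the most abundant, rose, with 92.9 ± 18.5 CPM (SD, n = 5) in the controls and 641 ± 207 CPM (SD, n = 4) in the *Supt6*-KO mice. The macrophage marker *Csf1r* fell, from a mean of 41.9 to 11.8 CPM (log2 fold change -1.83, SE 0.25). The neutrophil markers *Ly6g*, which was called higher, and *Mpo*, which was called lower, stayed below 1 CPM in the means of both groups.

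**Figure D4:**
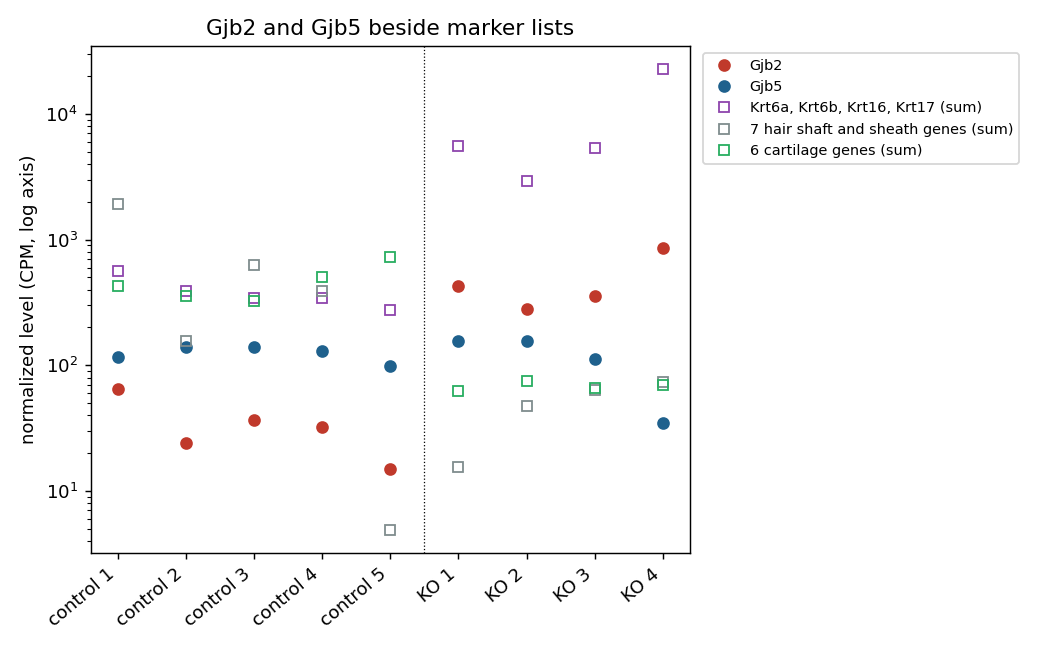
Normalized level (CPM, log axis) of *Gjb2* and *Gjb5* (filled circles) and summed level of 3 marker lists (open squares) in each mouse, with a dotted line between controls and *Supt6*-KO mice. In *Supt6*-KO mouse 4 *Gjb2* (858 CPM) and the activated keratinocyte sum (22800 CPM) are at their highest and *Gjb5* (34.8 CPM) is at its lowest.

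The genes whose values over the 9 mice lay nearest to each connexin were found by the root mean square difference of log2(CPM + 0.5), centred on the control mean, among 13563 genes with a mean of at least 1 CPM. For *Gjb6* these were *Klk12*, a kallikrein-related protease gene (difference 0.406), *Tmprss11a*, a transmembrane serine protease gene (0.444), and *Serpinb3a*, a serine protease inhibitor gene (0.472), with means of 0.167, 0.124 and 11.5 CPM in the controls and 26.2, 22.7 and 505 CPM in the *Supt6*-KO mice. Their log2 fold changes were 7.26, 7.48 and 5.45 against 5.33 for *Gjb6*. *Klk12* and *Tmprss11a* were below 1 CPM in the control mean and passed the limit of 1 CPM only through the *Supt6*-KO mice, and the added 0.5 brings such low values closer to those of *Gjb6*. For *Gjb2* they were *Pmaip1*, a proapoptotic BH3-only gene (0.465), *S100a7a*, a calcium-binding protein gene of inflamed epidermis (0.512), and *Has3*, a hyaluronan synthase gene (0.539). For *Gja1* they were *Tiparp* (0.206), *Tmsb10*, a thymosin gene (0.255), and *Smox*, a spermine oxidase gene (0.272), with log2 fold changes of 1.91, 2.06 and 2.03. For *Gjb5* they included *Parp10* (0.171) and *N4bp2l1* (0.179), with log2 fold changes of -0.25 and -0.29. These differences are a description of these 9 mice on that scale, and they depend on the added 0.5 where levels are low.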

How the data were processed

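Per the submitters' processing notes, reads were handled with HISAT, Bowtie2 2.3.4.3, RSEM 1.3.1 and DESeq2 1.4.5 on mm10, and libraries were made with an mRNA kit of BGI. The authors deposited estimated counts per gene from RSEM, not normalized between mice, and TPM for 6 of the 9 mice. The deposited TPM values served only to check transcript lengths. Whether counting used strand is not given in the sources used here. The sample titles number the mice and so give separate mice, and no batch is labelled.

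Estimated counts were rounded, a gene needed at least 10 counts summed over the 9 mice, and edgeR 4.0.16 (R 4.3.3) was run with TMM factors and its quasi-likelihood test on all genes, with Benjamini-Hochberg adjustment. The SE of an edgeR log2 fold change was derived from the test, as the size of the change divided by the square root of the F statistic. The SE of a difference in log2 ratio came from the SDs of both groups. Levels are CPM with TMM-adjusted totals. Single values were compared by two-sided exact permutation over the 126 regroupings of 5 and 4 mice. Lengths and positions came from the GENCODE annotation, and 17917 of 17943 identifiers matched RefSeq. Alternatives were a replicate block, DESeq2 1.42.0, upper-quartile factors, library totals, stricter or no filtering, a fit lacking the 50 most abundant genes, a correction for length, each mouse left out and, for ratios and shares, other reference lists and transcript lengths. The fits were also run on simulated data, the results of which are not given here and are not relied on. Named were the 4 connexins, *Supt6*, the other connexins, called genes of the partner and ATP lists, gene neighbours and the 3 nearest patterns, with other named genes chosen after their values were seen. The members and lists were chosen with earlier results of these data known. Some genes of the connexin list and of the nearest patterns are not reported here. *Gja10*, *Gjd2* and the 4 trunk Hox genes *Hoxa9*, *Hoxa10*, *Hoxb8* and *Hoxc9* were not analysed here. Summaries and plots used Python 3.11.15, pandas 2.3.3, scipy 1.17.1 and matplotlib 3.10.9.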

Additional observations from a re-analysis of the deposited data

Results flagged for a closer look

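Single mice stood apart from their group in 4 of 56 groups of values examined, by the gap to the nearest other mouse relative to the range of the group, where chance alone would flag about 1 in 20, or 2.8 groups. Among the *Supt6*-KO mice, mouse 2 had 152 CPM of *Gjb6* against a median of 176 CPM, a low value that is still far above the controls. Control mouse 1 had 209 CPM of *Gja1* against a control median of 114 CPM. The same mouse had a log2 ratio of *Gjb6* to *Gjb5* of -3.92 against a median of -5.17, and a log2 ratio of *Gjb5* to *Gja1* of -0.86 against a median of 0.21.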

How the results depend on the processing

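*Gjb2*, *Gjb6* and *Gja1* kept their direction and stayed past the threshold in all 17 alternatives, with log2 fold changes of 3.18 to 4.15, 4.65 to 5.66 and 1.27 to 2.18. That of *Gjb5* was -0.88 with library totals (adjusted p = 0.022 in edgeR's test) and -0.33 to 0.17 with each mouse left out, the sign turning without *Supt6*-KO mouse 4 (0.17). Library totals gave 1470 genes higher and 6802 lower, and each mouse left out gave 3247 to 3476 higher and 3845 to 4204 lower. Of the other connexins, 1 was called higher with library totals and 1 with the length correction. Of these, 5 were called lower with library totals, and 1 each with DESeq2, with the replicate block and with the length correction. With the filter of 10 counts in each mouse 1 of 9 tested was called lower, *Gja3* not being among those tested. With each mouse left out, 1 to 2 were called higher and 1 to 2 lower, and the lower number came from leaving out *Supt6*-KO mouse 3 for both and also control mouse 5 for the calls lower. The log2 ratio of *Gjb5* to the keratinocyte list was 0.21 to 1.12 with each mouse left out (exact permutation p = 0.0357 for 1.12, without *Supt6*-KO mouse 4), -0.14 against *Krt5* and *Krt14* only and -1.42 against the suprabasal list. The causes of these shifts were not tested. Of the alternatives, the ratios between members were run only with each mouse left out, and they kept their direction and non-overlapping groups. The ranges were -1.93 to -1.46 for *Gjb2* to *Gjb6*, 3.34 to 4.59 for *Gjb2* to *Gjb5* and 5.26 to 6.05 for *Gjb6* to *Gjb5*. Leaving out *Supt6*-KO mouse 4 gave -1.93, 3.34 and 5.26. The order and shares of the 4 connexins without that mouse were added after seeing the data.

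Mice of the same number had correlations of -0.021, 0.103, 0.105 and 0.005 in their deviations from the group means, with a mean of 0.048. Mice of different numbers had correlations of -0.133 to 0.118, with a mean of -0.01. So few values cannot settle whether equal numbers pair the mice. Control mouse 5 has no *Supt6*-KO mouse of its number, so it adds nothing to the group difference in the replicate block. With the replicate block the log2 fold changes were 3.56 for *Gjb2*, 5.26 for *Gjb6*, -0.39 for *Gjb5* and 1.85 for *Gja1*, and 3134 genes were called higher and 3834 lower, with *Gjc3* no longer among them. Low connexins such as *Gja6*, *Gjd4* and *Gje1* had at most 12 counts in any mouse, so their values are imprecise (SE 0.74 and 1.02 on the log2 scale for *Gja6* and *Gjd4*).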

Other observations

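Of 13 genes for other channels and for extracellular ATP, 1 rose and 3 fell, close to the 24.9% of all genes tested that fell and below the 20.9% that rose, and the median log2 fold change was 0.21. *Panx3*, which encodes a pannexin channel of skin and cartilage, fell, with 47.7 ± 2.07 CPM (SD, n = 5) in the controls and 8.71 ± 5.47 CPM (SD, n = 4) in the *Supt6*-KO mice and a log2 fold change of -2.46 (SE 0.37, adjusted p = 0.00011 in edgeR's test). *Entpd2*, an ectonucleotidase gene, fell as well, with 29.5 ± 4.60 CPM (SD, n = 5) in the controls and 6.98 ± 1.44 CPM (SD, n = 4) in the *Supt6*-KO mice and a log2 fold change of -2.08 (SE 0.18, adjusted p = 3e-06). *Panx2* also fell, at a level under 1 CPM in both groups. *Panx1*, the most abundant pannexin of the *Supt6*-KO mice, had 22.1 ± 4.80 CPM (SD, n = 5) and 36.3 ± 5.07 CPM (SD, n = 4), and *P2rx4*, an ATP-gated channel gene, had 16.3 ± 1.56 CPM and 31.2 ± 4.50 CPM, both under 2-fold, although *Panx1* was called higher with the length correction. *Entpd3* rose from 0.671 to 1.64 CPM (adjusted p = 0.018), with overlapping groups, and was not called with library totals or without *Supt6*-KO mouse 4.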
